A study of Arabidopsis thaliana with 6 samples.

Results

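The serine carboxypeptidase-like (SCPL) family of Arabidopsis thaliana was followed in pollinated flowers of the pop2-1 mutant and of the wild type. Its members here were the probe sets whose single annotated gene carries an SCPL symbol, 29 of the array's 22746 probe sets other than controls, each for a different gene. The reference gene table lists 51 SCPL genes by symbol or synonym, and the other 22 were not analysed here. A further 2 probe sets with an SCPL symbol list several genes and were left out.

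The pop2-1 flowers came from homozygous mutants of the Ler accession, and the wild-type flowers were of the same accession. Both were pollinated flowers of stage 14-15 from plants that carried no other stated allele or treatment. Genotype was taken from the sample titles, because the protocol text is word for word the same for both genotypes and names the mutant. POP2 is a GABA transaminase, the enzyme that degrades γ-aminobutyric acid (GABA), and flowers of the mutant hold high levels of GABA. The series asked which transcripts differ between these flowers, with 3 arrays per genotype called biological replicates and 6 in all. The transcript of POP2 was not analysed here, so the labels could not be set against it.

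SCPL proteins share the fold and the catalytic serine, aspartate and histidine of the serine carboxypeptidases, enzymes that remove amino acids from the C-terminal end of a peptide. They are made with a signal peptide and enter the secretory pathway, from which they reach the vacuole or the cell wall space. Some members have lost peptidase activity and work as acyltransferases that move sinapate from sinapoylglucose to another acceptor. SNG1 makes the sinapoylmalate of leaves in this way and SNG2 the sinapoylcholine of seeds. BRS1 is a further known member, found because its overexpression suppresses a weak brassinosteroid receptor mutant. These 3 genes had no probe set with a single listed gene. Of the 19 family genes numbered SCPL1 to SCPL19, among which the acyltransferases SNG1 and SNG2 fall, 2 were measured, SCPL16 and SCPL18.

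Values are MAS5 signals, the linear hybridisation intensity that the Affymetrix software gives for a probe set after scaling each array to a common average. A probe set's signal depends on its own probes as well as on its transcript, so signals are compared between arrays and not between genes. The whole flower was sampled, so fewer cells of a type and less RNA per cell cannot be told apart. Median signals of the 6 arrays lay between 209.3 and 228.9. On pop2-1 replicate 2 the 3' actin control gave 9.73 times the signal of the 5' control, a mark of RNA quality, while this ratio lay between 1.72 and 2.93 on the remaining arrays. Where leaving out this array moved the difference given for a tested gene by over 1.5 times, the value without it is given too. Of the markers fixed for parts of the flower, SWEET9, which exports sugar from nectaries, ranged from 6814 to 7294 in pop2-1 and from 7027 to 7367 in wild type. The 3 petal and sepal identity genes had no probe set with a single listed gene.

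A probe set was tested if its mean signal over all 6 arrays exceeded 129.7, the 40th percentile of all probe sets, and this held for 18 of the 29 SCPL genes. Their mean signals ran from 147.4 for SCPL27 to 4218 for SCPL48. SCPL48 and SCPL49, which resemble the vacuolar carboxypeptidase Y of yeast, were among them. The remaining 11 genes, at mean signals of 4.40 to 123.5, are called dim. The members nearest the filter were SCPL27 just above it and SCPL32 just below it.

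**Figure D1:**
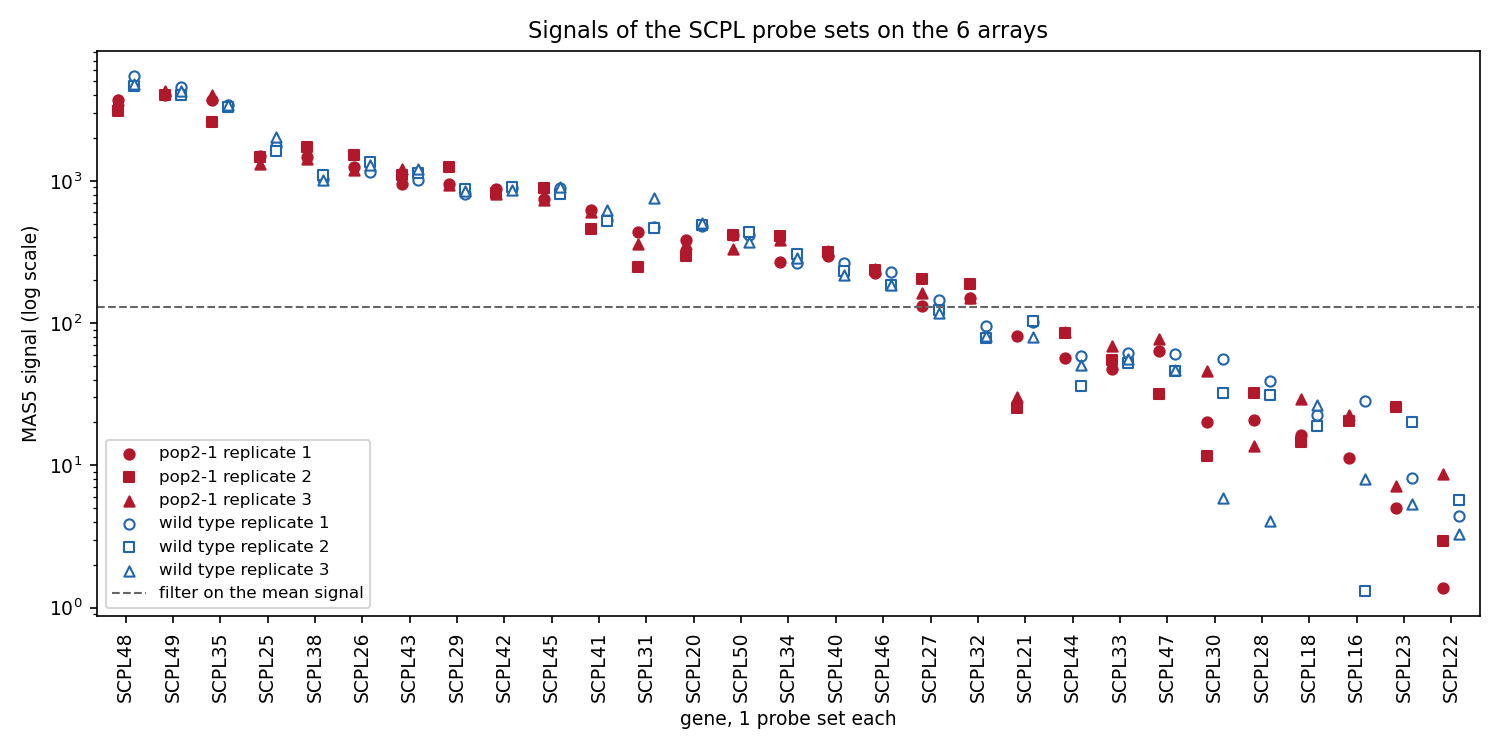
MAS5 signal on a log axis of the 29 SCPL probe sets on each array, ordered by mean signal, with pop2-1 (filled symbols) left of wild type (open symbols) and the replicate number as the symbol shape. The dashed line is the filter at a mean signal of 129.7, with 18 genes above it, and the probe sets at the far right differ widely between arrays of one genotype.

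No SCPL gene passed at a limma adjusted p under 0.05, in either direction, where 0.462% of all 13647 tested probe sets did (63 probe sets). The family was chosen with earlier results of these data known, so its counts and shares are a description only. At an unadjusted p under 0.05 there were 6 of the 18, or 33.3%, where 11.9% of all tested probe sets had such a p. Lower in pop2-1 were 4 of these, SCPL48, SCPL20, SCPL31 and SCPL25 (5.46% of all tested probe sets), and higher were 2, SCPL38 and SCPL40 (6.45% of all). With the replicate number as a block, a fit that compares arrays of the same number, 1 gene was called higher, SCPL38, and 1 lower, SCPL48. With the block 1.9% of all tested probe sets were called, 0.799% higher and 1.1% lower. The median absolute log2 difference was 0.24 over the 18 genes, larger than the 0.15 over all tested probe sets. Of the 18, 0 reached a log2 difference of 1.

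SCPL48 (AT3G45010) is a member of the carboxypeptidase Y-like branch of the family. Its signals were 3674, 3083 and 3672 in pop2-1 replicates 1 to 3, against 5418, 4676 and 4787 in wild type. Every pop2-1 array lay below every wild-type array, and the lowest signal of all was that of pop2-1 replicate 2. The pop2-1 arrays averaged 3476 ± 341 and the wild-type arrays 4960 ± 400 (SD, n = 3 each). The difference was -0.51 ± 0.11 on the log2(signal + 16) scale, a 1.43-fold lower signal in pop2-1. It did not pass without the block (limma adjusted p = 0.0943) and passed with it (limma adjusted p = 0.0312). Without pop2-1 replicate 2 the difference was -0.43 (limma adjusted p = 0.104).

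SCPL38 (AT2G05850) was the gene with the smallest unadjusted p among those higher in pop2-1. Its signals were 1473, 1739 and 1427 in pop2-1 replicates 1 to 3, against 1027, 1094 and 1007 in wild type. Again the groups did not overlap, and here pop2-1 replicate 2 gave the highest signal of the 6 arrays. The pop2-1 arrays averaged 1546 ± 169 and the wild-type arrays 1043 ± 45.9 (SD, n = 3 each), a 1.47-fold higher signal in pop2-1. On the log2 scale it was 0.56 ± 0.12, with a limma adjusted p of 0.0903, and of 0.0380 with the replicate block. Without pop2-1 replicate 2 the difference was 0.47 (limma adjusted p = 0.0998). With the actin 3'/5' ratio as a covariate it was 0.47, and SCPL38 passed (limma adjusted p = 0.0444).

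SCPL20 (AT4G12910), SCPL31 (AT1G11080) and SCPL25 (AT3G02110) lay below the wild type in every pop2-1 array but did not pass over all probe sets. SCPL20 had signals of 384.9, 295.5 and 359.0 in pop2-1 and 480.3, 488.1 and 504.4 in wild type. The wild-type signals of SCPL20 lay close together and the pop2-1 signals apart, with pop2-1 replicate 2 lowest. The log2 difference of SCPL20 was -0.49 ± 0.13 (limma adjusted p = 0.186) and -0.39 without pop2-1 replicate 2.

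SCPL31 had signals of 439.9, 246.3 and 357.5 in pop2-1, against 471.0, 469.0 and 762.3 in wild type. The gap between the groups was narrow, since pop2-1 replicate 1 lay just under the lower wild-type arrays, and wild-type replicate 3 stood high. The log2 difference of SCPL31 was the farthest from 0 among the 18 genes, -0.68, and had the largest standard error, 0.24 (limma adjusted p = 0.316). Without pop2-1 replicate 2 it was -0.46 (limma adjusted p = 0.45).

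SCPL25 had signals of 1498, 1470 and 1322 in pop2-1, against 1769, 1617 and 2028 in wild type. In this gene pop2-1 replicate 3 was the lowest array and replicate 2 lay between the other pop2-1 arrays. For SCPL25 the log2 difference was -0.33 ± 0.12 (limma adjusted p = 0.327), and -0.35 without pop2-1 replicate 2.

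SCPL40 (AT3G63470) and SCPL29 (AT4G30810) lay above the wild type in every pop2-1 array, likewise without passing. SCPL40 had signals of 298.3, 316.1 and 321.1 in pop2-1, against 264.7, 230.8 and 216.0 in wild type. Its pop2-1 arrays lay close together, at 312 ± 12.0 (SD, n = 3), and its wild-type arrays averaged 237 ± 25.0 (SD, n = 3). The log2 difference of SCPL40 was 0.38 ± 0.14 (limma adjusted p = 0.338), and 0.37 without pop2-1 replicate 2. SCPL29 had signals of 957.2, 1249 and 940.2 in pop2-1, against 806.7, 879.2 and 842.1 in wild type. Here pop2-1 replicate 2 stood well above the other arrays. The log2 difference of SCPL29 was 0.30 ± 0.13 (limma adjusted p = 0.425), and 0.17 without that array.

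**Figure D2:**
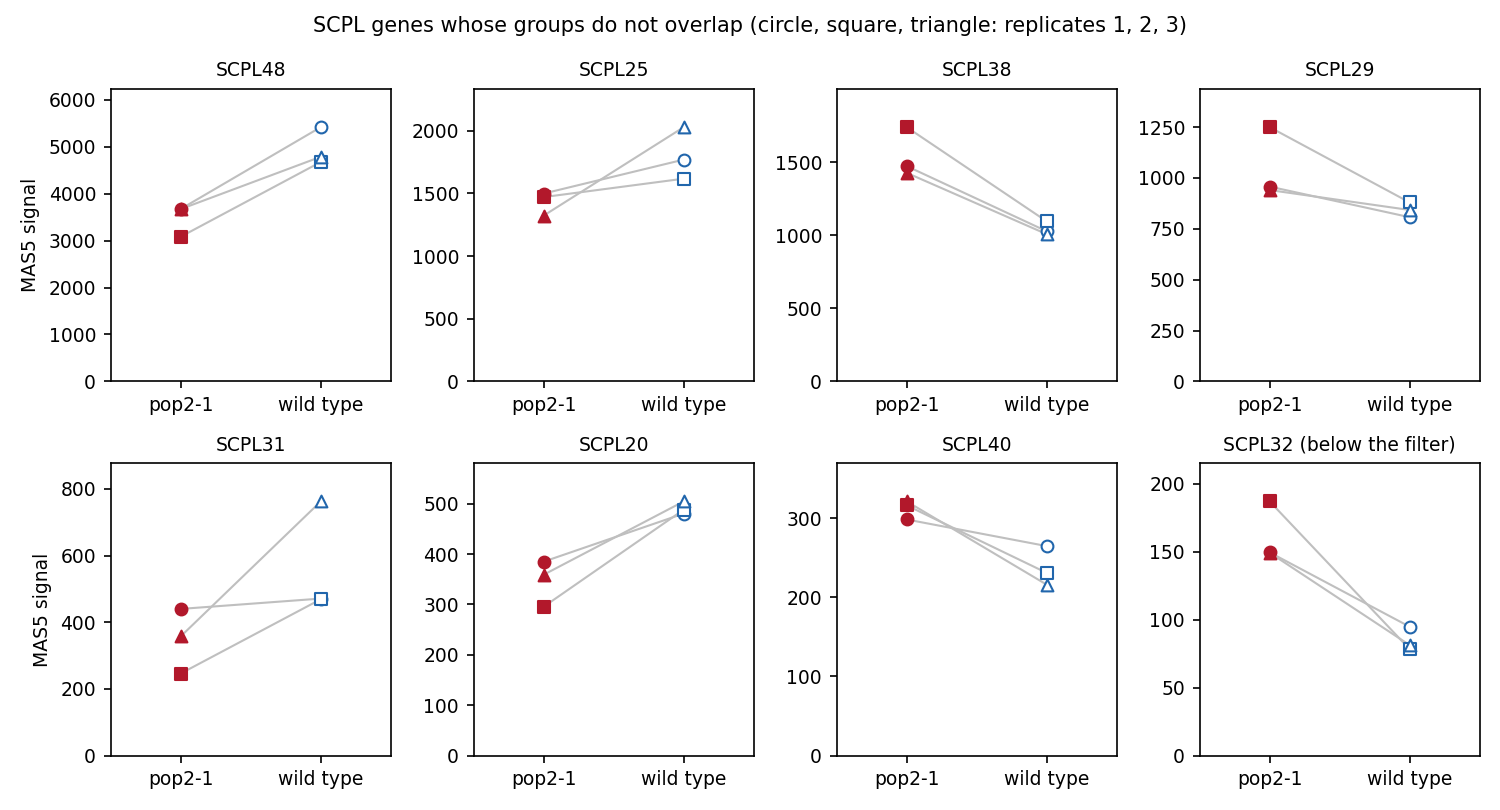
MAS5 signal in pop2-1 (filled, left) and wild type (open, right) of the 8 SCPL genes whose groups do not overlap, 1 panel per gene with its own axis from 0, and grey lines joining arrays of the same replicate number. SCPL48, SCPL25, SCPL31 and SCPL20 lie lower in pop2-1, and SCPL38, SCPL29, SCPL40 and the dim SCPL32 lie higher.

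In all, the groups did not overlap in 7 of the 18 genes, or 38.9%, where this held for 17.9% of all tested probe sets. In 3 of the 7 the pop2-1 arrays lay above the wild type, where 9.88% of all tested probe sets did so, and in 4 below, where 8.06% did. The median log2 difference of the 18 genes was -0.030, beside 0.029 over all tested probe sets. By sign alone 8 were higher in pop2-1 and 10 lower, or 6 and 12 when arrays were scaled to equal medians.

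The groups overlapped in the other 11 genes above the filter. SCPL49 (AT3G10410), named carboxypeptidase Y in the reference table's synonyms, had signals of 4002, 4022 and 4274 in pop2-1, against 4577, 3983 and 4249 in wild type. Its log2 difference was -0.057, with a 95% interval of -0.27 to 0.16 that is not adjusted for multiple tests. SCPL48 lies in the same branch of the family, and the difference between the effects on both genes was not tested.

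SCPL35 (AT5G08260) had signals of 3678, 2581 and 4046 in pop2-1, against 3434, 3324 and 3404 in wild type. Its wild-type arrays were the most alike of any of the 18 genes, with a coefficient of variation of 1.68%, while that of its pop2-1 arrays was 22.2%. The lowest of its signals was that of pop2-1 replicate 2, the array with the high actin ratio, and the part of RNA quality in it was not tested. The log2 difference of SCPL35 was -0.0054 (95% interval -0.35 to 0.34), and 0.19 without that array (limma adjusted p = 0.47), so its sign turned.

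SCPL41, reported to act on membrane lipid metabolism, had signals of 628.0, 456.7 and 600.8 in pop2-1, against 532.4, 520.4 and 622.2 in wild type. Its log2 difference was 0.00012 (95% interval -0.34 to 0.34), the smallest in size of the 18, and 0.14 without pop2-1 replicate 2. SCPL42 had 879.1, 821.0 and 811.4 in pop2-1 and 892.9, 908.6 and 862.8 in wild type. The log2 difference of SCPL42 was -0.084 (95% interval -0.32 to 0.15), and its arrays varied little in either genotype. Both intervals include 0, and with 3 arrays per group a true difference of any size inside them remains possible.

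SCPL26, SCPL43, SCPL45 and SCPL50 had log2 differences of 0.051, -0.055, -0.14 and -0.072, each within its standard error of 0 or close to it. For SCPL26 the sign turned without pop2-1 replicate 2, to -0.051, while SCPL45 then stood at -0.23 and SCPL50 at -0.13. SCPL34 had signals of 267.4, 406.6 and 386.8 in pop2-1, against 266.5, 304.3 and 285.7 in wild type. In SCPL34 pop2-1 replicate 1 stood at the lowest wild-type level while the other pop2-1 arrays lay above it, and the log2 difference was 0.27 ± 0.17 (limma adjusted p = 0.553). Without pop2-1 replicate 2 it was 0.17. SCPL46 had a log2 difference of 0.21 ± 0.15 and SCPL27 one of 0.31 ± 0.21, which was 0.17 without that array. The wild-type mean of SCPL27, 129.0, lay under the filter and its pop2-1 mean of 165.9 above it, so the gene was tested because of its pop2-1 signals.

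**Figure D3:**
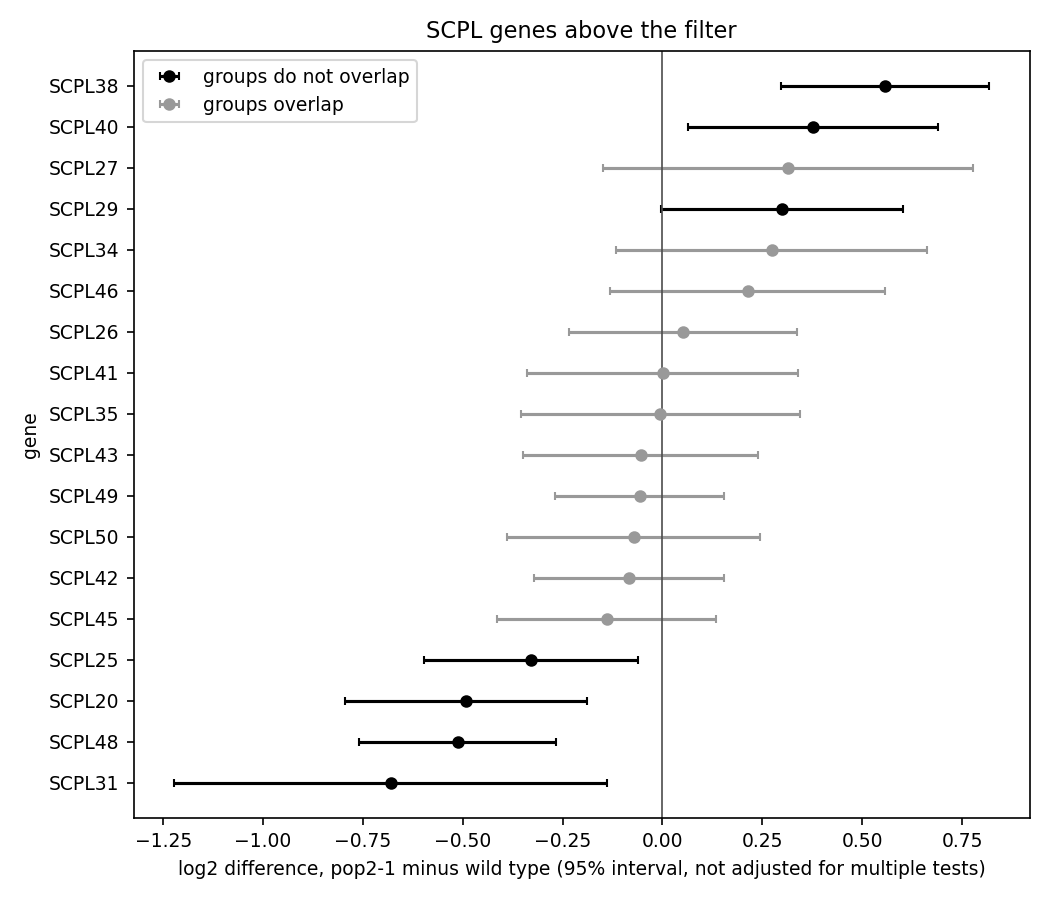
Log2 difference, pop2-1 minus wild type, of the 18 SCPL genes above the filter, with unadjusted 95% intervals from limma. The 7 genes whose groups do not overlap are black, 3 of them with positive and 4 with negative differences. The others are grey, and their intervals all include 0, as does that of SCPL29 among the black genes (-0.0039 to 0.60).

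Among the 11 dim genes, SCPL32 (AT1G61130) was the 1 whose groups did not overlap. This held for 17.9% of all tested probe sets, and the share among probe sets below the filter was not computed. The signals of SCPL32 were 149.6, 187.2 and 149.4 in pop2-1, all above the filter's level, against 94.9, 78.3 and 81.3 in wild type, all below it. Its mean over all arrays, 123.5, kept it out of the test. With no filter its log2 difference was 0.82 ± 0.20, larger than any of the 18 tested, and it did not pass (limma adjusted p = 0.216).

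SCPL21 had signals of 80.5, 25.4 and 30.1 in pop2-1, against 101.5, 103.7 and 80.3 in wild type. The groups met at pop2-1 replicate 1, and with no filter the log2 difference was -0.96 ± 0.34 (limma adjusted p = 0.41). SCPL44 had 56.5, 85.1 and 86.7 in pop2-1 and 58.4, 36.3 and 50.6 in wild type, with overlapping groups. SCPL33 averaged 57.0 ± 11.0 in pop2-1, against 56.7 ± 4.45 in wild type (SD, n = 3 each). SCPL47, the third of the carboxypeptidase Y-like branch, averaged 57.6 ± 23.4 in pop2-1 and 51.0 ± 8.13 in wild type.

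The mean signals of SCPL30, SCPL28, SCPL18, SCPL16, SCPL23 and SCPL22 over all arrays lay between 4.40 and 28.6. At such levels single arrays differed widely within a genotype: SCPL16 had 11.3, 20.3 and 22.4 in pop2-1, and 28.4, 1.31 and 7.98 in wild type. Detection calls were not used here, so it is not known whether these signals lie above background. Both measured genes of the SCPL1 to SCPL19 group are among them. In the reference gene table SCPL22 and SCPL23 are neighbours with no protein-coding gene between them, and both were dim. SCPL26 and SCPL28 are direct neighbours as well, SCPL26 above the filter and SCPL28 dim.

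The pop2-1 arrays spread more than the wild-type arrays in this family as on the whole array. The SD was larger in pop2-1 for 12 of the 18 genes, or 66.7%, and for 74.7% of all tested probe sets. The median coefficient of variation was 12.5% in pop2-1 and 7.97% in wild type. Of the 3 pop2-1 arrays, replicate 2 was the highest for 7 of the 18 genes and the lowest for 5. Replicate 1 was the highest for 6 and the lowest for 6, and replicate 3 the highest for 5 and the lowest for 7. Over all tested probe sets replicate 2 was the highest for 42.4% and the lowest for 33.9%. These shares were 31.0% and 40.3% for replicate 1, and 26.6% and 25.7% for replicate 3.

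The sum of 6 pollen markers was 1346, 2442 and 1946 in pop2-1 replicates 1 to 3, against 1171, 1551 and 1340 in wild type. The sum was highest on pop2-1 replicate 2, as were SCPL38 and SCPL29, and its groups overlapped. BUPS1 and ANX2 had the largest signals in it. ANX1, ANX2, MGH3 and BUPS1 were highest on pop2-1 replicate 2, while ACT12 and BUPS2 were highest on pop2-1 replicate 3. In pop2-1 the sum was higher on replicate 3 than on replicate 1, while SCPL38 and SCPL29 were slightly lower there. Of these markers 6 of 8 had a probe set, 5 were tested and 0 passed in limma (0.462% of all tested probe sets). At an unadjusted p under 0.05 there was 1 (11.9% of all), and none was near 0, the lowest signal being 52.4. The tested markers were all higher in pop2-1, at a median log2 difference of 0.49. Without pop2-1 replicate 2, ANX2 went from 0.49 to 0.21, BUPS1 from 0.42 to 0.20 and MGH3 from 0.53 to 0.35. ACT12 then stood at 0.38 and BUPS2 at 0.55. The groups did not overlap for BUPS2 (pop2-1 above in 9.88% of all). Its wild-type mean of 105.6 lay under the filter and its pop2-1 mean of 158.1 above it, so BUPS2 was tested because of its pop2-1 signals. The sum of 3 young seed markers lay between 61.2 and 92.1 in pop2-1 and between 265.3 and 530.1 in wild type. It lay lower in pop2-1, as SCPL48, SCPL20, SCPL31 and SCPL25 did. That sum was carried by BAN, the anthocyanidin reductase of the seed coat, which fell by 2.45 on the log2 scale (limma adjusted p = 0.0111). Its pop2-1 mean of 56.2 lay under the filter and its wild-type mean of 393.8 above it, so BAN was tested because of its wild-type signals. It did not pass without pop2-1 replicate 3 (limma adjusted p = 0.0832), wild-type replicate 2 (0.0708) or wild-type replicate 3 (0.102). The other young seed markers, AGL62 and IKU2, were too dim to test, and IKU2 was near 0. The 2 tapetum markers, also too dim to test, summed to between 28.2 and 40.3 in pop2-1 and between 8.67 and 72.6 in wild type. The ovule gene INO ranged from 269.1 to 355.1 in pop2-1 and from 192.9 to 330.2 in wild type. The part of pollen, seed coat and RNA quality in the SCPL differences was not tested.

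Genes around the known reactions of the family were taken from lists of the sinapate ester pathway, of anthocyanin decoration and of vacuolar proteases. These lists were chosen with earlier results of these data known, so their counts are a description only. The sinapate ester pathway makes sinapoylglucose, the donor for the acyltransferase members. Of its 18 listed genes 4 were tested and 0 passed in limma, where 0.462% of all tested probe sets did. At an unadjusted limma p under 0.05 there was 1, UGT84A1, where 11.9% of all tested probe sets had such a p. UGT84A1, a glucosyltransferase that makes hydroxycinnamoyl glucose esters, had the largest difference in size, -0.75 ± 0.28 on the log2 scale (limma adjusted p = 0.344). Its pop2-1 mean of 95.5 lay under the filter and its wild-type mean of 169.2 above it, so it was tested because of its wild-type signals, and without pop2-1 replicate 2 it stood at -0.55. UGT84A3, of the same enzyme family, stood at 0.24 ± 0.13, ALDH2C4, the aldehyde dehydrogenase that forms sinapate and ferulate, at -0.24 ± 0.14, and HCT, an acyltransferase earlier in the pathway, at -0.16 ± 0.13. Without pop2-1 replicate 2 ALDH2C4 stood at -0.092 and HCT at -0.080.

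Anthocyanins are another acceptor of sinapate from sinapoylglucose. The 6 genes listed for the decoration of anthocyanins were, like the other lists, chosen with earlier results known, so their count is a description only. Of these 3 were tested and 2 fell, where 0.315% of all tested probe sets did. They were UGT79B1 and UGT75C1, glycosyltransferases of the anthocyanin core, at -1.34 and -1.37 on the log2 scale (limma adjusted p = 0.00686 and 0.00814). UGT79B1 did not pass without wild-type replicate 2 (limma adjusted p = 0.0579). UGT75C1 did not pass without that array (0.0579), pop2-1 replicate 3 (0.0765) or wild-type replicate 3 (0.056). The malonyltransferase gene 5MAT did not pass (-0.79, limma adjusted p = 0.0913), and it too was tested because of its wild-type signals, since its pop2-1 mean of 118.7 lay under the filter.

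Vacuolar proteases act in the compartment where carboxypeptidase Y works in yeast. Of 8 listed genes 4 were tested and 0 passed in limma, where 0.462% of all tested probe sets did. At an unadjusted limma p under 0.05 there was 1, GAMMA-VPE, where 11.9% of all tested probe sets had such a p. GAMMA-VPE, a vacuolar processing enzyme of vegetative tissue, had signals of 7447, 5593 and 6920 in pop2-1, against 8762, 8799 and 8616 in wild type. As for SCPL48, every pop2-1 array lay below every wild-type array and pop2-1 replicate 2 was lowest. Its log2 difference was -0.40 ± 0.11 (limma adjusted p = 0.197), and -0.28 without that array. The aspartic protease gene APA1, at -0.051 ± 0.077, overlapped between the groups.

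**Figure D4:**
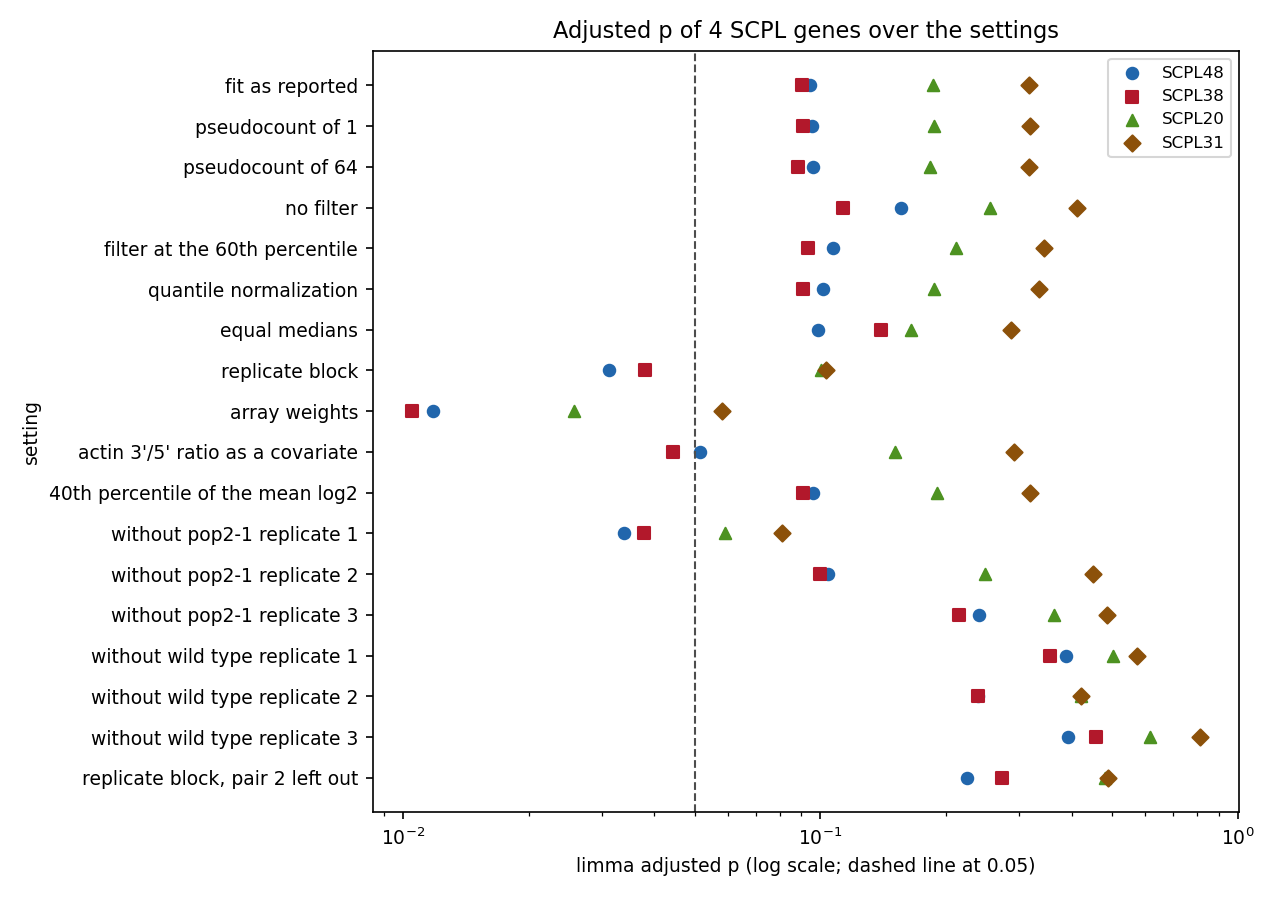
Limma adjusted p, on a log axis, of SCPL48, SCPL38, SCPL20 and SCPL31 in the fit as reported (top row) and in 17 alternatives. Points left of the dashed line pass at 0.05: SCPL38 in 4 alternatives, SCPL48 in 3, SCPL20 in 1 and SCPL31 in 0.

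The call on SCPL48 and SCPL38 thus depended on the setting, while the sign of each difference held in all 17 alternatives. Their groups do not overlap, so leaving out arrays could not have turned the sign. Over the fits that leave out 1 array, the difference of SCPL48 ran from -0.55 to -0.43 and its limma adjusted p from 0.0338 to 0.391, and SCPL38 ran from 0.47 to 0.61 with limma adjusted p from 0.0378 to 0.457. In both genes the lowest adjusted p came without pop2-1 replicate 1, the 1 such fit in which they passed. Without both arrays of replicate number 2 under the block, a fit added with the data known, neither was called.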

How the data were processed

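The deposited values were MAS5 signals, linear intensities with 1 value per probe set and array, made by the authors with MAS5 per the submitters' processing notes; version and scaling target are not given in the sources used here. The arrays were Affymetrix ATH1 GeneChips hybridised with biotin-labelled cRNA, per the labels' protocols. Of 22810 probe sets 64 were controls. The platform annotation gave 1 gene for 13513 probe sets, several for 503 and none for 8730 others, and loci came from the TAIR10.1 gene table.

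A pseudocount of 16 was added, log2 was taken, and 13647 probe sets with a mean signal above the 40th percentile were tested with limma 3.58.1 in R 4.3.3 (lmFit, eBayes with an intensity trend, 2-sided, Benjamini-Hochberg over all tested). The error of a log2 difference is its limma standard error. Fold changes are on the log2(signal + 16) scale and understate those of dim genes. The number of arrays limits the precision, and nothing in the labels says that arrays came from separate plants, so p-values measure the spread between these samples.

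Replicate numbers come from the titles. Across tested probe sets, the departures from the group mean correlated at 0.208, 0.418 and 0.172 between pop2-1 and wild-type arrays with numbers 1, 2 and 3. Correlations between arrays of different numbers are not given. Number 2 had the highest actin 3'/5' ratio in each genotype (9.73 and 2.93), and the part of RNA quality in its correlation was not tested. That the numbers pair the samples is thus an assumption, and the replicate block is given where it changes a call. Every SCPL gene was described, those above the filter in full; a filter on mean log2 values, at a signal of 126.2, also left 18. The members and lists were chosen with earlier results of these data known. No sequence is printed.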

Additional observations from a re-analysis of the deposited data

How the results depend on the processing

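The alternatives were other pseudocounts (1 and 64), filters and scalings, the replicate block, array weights, the actin 3'/5' ratio as a covariate, leaving out each array, an adjusted p under 0.10, and 2 chosen after the data had been seen: a filter on the mean log2 value and the block without pair 2. Where values moved, the cause was not tested unless fewer arrays or genes give it. Among SCPL genes, called higher and lower were 1 and 1 with the replicate block (0 and 0 without), 1 and 3 with array weights, 1 and 0 with the actin covariate, 1 and 1 at an adjusted p under 0.10, and 0 to 1 and 0 to 1 over the fits that leave out 1 array. The block changed no other SCPL call. The array weights called SCPL20 and SCPL25 besides SCPL48 and SCPL38. The 60th percentile left 14 SCPL genes above the filter. The SCPL median was -0.096 with equal medians and -0.058 to 1.8e-06 over the fits that leave out 1 array.

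Over all 13647 tested probe sets, higher and lower calls were 109 and 150 with the replicate block (20 and 43 without), 477 and 495 with array weights, 62 and 95 with the actin covariate, 64 and 88 at an adjusted p under 0.10, and 3 to 199 and 2 to 328 over the fits that leave out 1 array. Lower calls were 27 with no filter and 25 at the 60th percentile, where other numbers of probe sets were tested. Pathway genes called lower were 4 with array weights and 0 to 3 over those fits.

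Signs turned only in 5 genes with differences near 0. SCPL26 turned to -0.014 with equal medians, -0.062 with array weights, -0.040 with the actin covariate, -0.0011 with pair 2 left out under the block, and lay between -0.051 and 0.12 without 1 array. SCPL35 turned to 0.047 with quantile normalization, 0.18 with array weights, 0.16 with the covariate, 0.17 without pair 2, and lay between -0.14 and 0.19 without 1 array. SCPL41 turned to -0.00014 with a pseudocount of 1, -0.033 with quantile normalization, -0.064 with equal medians, and lay between -0.085 and 0.14 without 1 array. SCPL43 turned to 0.032 with array weights and lay between -0.14 and 0.039, and SCPL50 between -0.14 and 0.033, without 1 array. With 3 arrays per group, half-widths of the 95% intervals ran from 0.21 to 0.54 log2 units.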
